A study of Mus musculus with 23 samples.

Results

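The chromatin intervals described here lay at the ends of protein-coding genes and were open in every library of a series on striatal microglia. Peaks of 23 ATAC-seq libraries were merged where they overlapped, on chromosomes 1 to 19 and X, from the best 33900 peaks of each library by −log10 p. This gave 71467 intervals, of which 15962 had a peak in all 23 libraries. Intervals were chosen by these peak calls and by position: an interval was kept when it had a peak in all 23 libraries and lay within 1 kb of an end of a protein-coding gene, and 8637 intervals met this rule (12.1% of all merged intervals and 54.1% of those open in every library). The other 7325 intervals open in every library served as the comparison and are called intervals elsewhere.

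The libraries came from male mice aged 8 to 10 weeks. Microglia were sorted from the striatum as live, CD11b+, CD45-low and P2RY12+ cells, after digestion with papain at 37 °C for 30 min. Control offspring (CON) and offspring of dams with maternal immune activation (MIA) received saline (SAL) or 4500 endotoxin units per g of bacterial lipopolysaccharide (LPS) into the peritoneal cavity, and cells were taken 18 h later. The groups were CON_SAL (n = 5), CON_LPS (n = 7), MIA_SAL (n = 6) and MIA_LPS (n = 5). By its title the series asks whether immune stress before birth makes adult microglia react less, so the LPS response in MIA set against that in CON is the comparison of interest. The sources used here do not give the agent used in the dams or the mouse strain, and the labels do not say that each library is a separate animal. The labels also give each library an identity number, without saying whether it stands for an animal, a litter or a batch. The 23 libraries carry 14 different numbers, 17 libraries share theirs with another library, and 4 numbers recur within a group, so the number of independent samples may be smaller than n.

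ATAC-seq marks DNA that a transposase can reach, which is DNA not covered by nucleosomes. The region just upstream of an active transcription start is usually kept free of nucleosomes, and promoters rich in CpG dinucleotides tend to be accessible in most cell types whether or not the gene is being strongly transcribed. Enhancers away from genes are more often open in some cell types or states only. LPS binds the receptor TLR4, and in macrophages and microglia it activates the transcription factors NF-kB, AP-1 and the interferon regulatory factors. Microglia are sampled here in bulk, so a difference in the share of cells that are open and a difference in the openness per cell cannot be told apart.

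Promoter sequences are printed for 8 of the intervals, as these sequences carry the DNA whose openness is compared below. Each is the 250 bases upstream of the RefSeq transcription start (GRCm38.p6), written 5′ to 3′ on the strand of the gene. Capitals mark matches, on either strand, to a motif named with it, and lower case is the rest. The first 3 lie at intervals with some of the largest rises in openness after LPS.
Cd44, chr2:102901666-102901915, minus strand: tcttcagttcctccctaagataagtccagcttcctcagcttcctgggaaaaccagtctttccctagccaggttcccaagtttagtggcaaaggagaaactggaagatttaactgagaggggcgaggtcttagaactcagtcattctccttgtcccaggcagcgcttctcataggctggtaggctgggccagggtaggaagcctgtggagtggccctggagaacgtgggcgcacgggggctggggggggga
Lgals3, chr14:47373610-47373859, plus strand: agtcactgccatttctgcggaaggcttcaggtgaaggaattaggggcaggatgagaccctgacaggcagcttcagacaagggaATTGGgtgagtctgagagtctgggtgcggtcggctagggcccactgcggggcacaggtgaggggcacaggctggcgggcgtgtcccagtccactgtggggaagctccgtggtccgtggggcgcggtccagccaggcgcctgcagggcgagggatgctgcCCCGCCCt
Uba7, chr9:107975317-107975566, plus strand: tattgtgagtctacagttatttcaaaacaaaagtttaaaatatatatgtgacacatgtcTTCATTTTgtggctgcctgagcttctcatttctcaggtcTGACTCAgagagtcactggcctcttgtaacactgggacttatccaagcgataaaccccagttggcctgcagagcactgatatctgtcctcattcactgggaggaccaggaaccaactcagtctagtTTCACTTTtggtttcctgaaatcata
The next 3 lie at intervals with some of the largest falls after LPS.
Dock1, chr7:134670437-134670686, plus strand: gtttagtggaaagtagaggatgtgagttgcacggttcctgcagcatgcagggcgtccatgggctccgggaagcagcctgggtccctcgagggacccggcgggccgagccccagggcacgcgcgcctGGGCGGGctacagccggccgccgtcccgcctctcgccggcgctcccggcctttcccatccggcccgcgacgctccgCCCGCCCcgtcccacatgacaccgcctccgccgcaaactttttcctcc
Espn, chr4:152152390-152152639, minus strand: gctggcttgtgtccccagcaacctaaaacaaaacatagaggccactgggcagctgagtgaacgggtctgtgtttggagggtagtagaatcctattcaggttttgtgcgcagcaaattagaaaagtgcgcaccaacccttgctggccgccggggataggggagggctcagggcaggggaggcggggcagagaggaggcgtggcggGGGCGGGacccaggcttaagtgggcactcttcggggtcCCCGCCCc
Dhtkd1, chr2:5942793-5943042, minus strand: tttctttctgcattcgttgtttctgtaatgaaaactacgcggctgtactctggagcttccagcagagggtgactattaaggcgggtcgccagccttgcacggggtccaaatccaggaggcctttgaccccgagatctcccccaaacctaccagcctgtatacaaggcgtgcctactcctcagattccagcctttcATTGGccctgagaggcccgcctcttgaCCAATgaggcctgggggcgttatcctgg
The last 2 lie at intervals that were among the most open in every library. They were picked after their values were seen.
Golph3l, chr3:95588684-95588933, plus strand: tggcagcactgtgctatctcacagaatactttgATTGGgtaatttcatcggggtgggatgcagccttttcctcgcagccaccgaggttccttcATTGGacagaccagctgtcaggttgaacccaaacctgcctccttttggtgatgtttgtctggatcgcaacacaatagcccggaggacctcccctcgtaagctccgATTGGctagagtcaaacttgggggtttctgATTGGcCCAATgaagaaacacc
Kbtbd7, chr14:79426261-79426510, plus strand: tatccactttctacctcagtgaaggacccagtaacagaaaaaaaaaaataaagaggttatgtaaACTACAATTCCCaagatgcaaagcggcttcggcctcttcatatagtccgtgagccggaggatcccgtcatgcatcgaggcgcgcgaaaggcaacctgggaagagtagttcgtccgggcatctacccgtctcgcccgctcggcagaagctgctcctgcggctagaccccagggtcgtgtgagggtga
In these stretches the capitals at Lgals3 mark a CCAAT box (CCAAT, bound by NF-Y, here on the other strand as ATTGG) and a GC box (GGGCGGG, bound by SP and KLF factors). The Uba7 sequence held 1 AP-1 match (TGANTCA) and 2 matches to the core TTCNNTTT of the interferon-stimulated response element. Dock1 and Espn each held 2 GC boxes, and Dhtkd1 held 2 CCAAT boxes. Golph3l held 5 CCAAT boxes, and Kbtbd7 held 1 match to the motif of RONIN and ZNF143. The Cd44 sequence held none of the motifs searched, and this says only that those letters are not in this window.

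The G and C content of these stretches ran from 42% at Uba7, with 1 CpG, to 71.6% at Dock1, with 29 CpGs. The intervals as a whole lay at CpG-rich promoters. Of 21045 RefSeq promoter windows (250 bases before to 50 after the start), 8139 overlapped one of the 8637 intervals. Their median ratio of observed to expected CpG was 0.824, against 0.302 in the 12906 windows outside them, and 85.5% against 24.5% had a ratio over 0.6.

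A GC box was present in 54.6% of the windows in the intervals and in 34.2% of all windows. The ETS motif CCGGAAGT was present in 10.6% against 5.2%, and the TATA box TATAAA in 5.25% against 12.7%. The CCAAT box was about as frequent in the intervals (40.1%) as in all windows (38.5%). It nevertheless varied with openness, from 23% in the 252 windows of intervals with a mean percentile under 40 to 58.6% in the 1120 windows of those over 95. The RONIN and ZNF143 motif was present in 3.02% of the windows in the intervals, and in 6.61% of those over 95. These shares are descriptions, and a match is not shown to be a bound site.

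Openness was graded by the fold enrichment that the authors' peak caller gave at the summit. The fold of the best peak in an interval was turned into its percentile among the 33900 peaks of the same library. On this scale 100 is the highest fold and 0 the lowest. Percentiles were used because folds differed between libraries, for reasons that were not tested. The median fold over the 8637 intervals ran from 8.307 to 17.539 between libraries, whereas their median percentile ran only from 81.83 to 84.07. The rule required a peak in every library, so presence cannot change in these intervals, and only the grade was compared. How far a grade could fall was also limited by the rule.

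The intervals sat on transcription starts. A gene end lay inside 7543 of them (87.3%). A RefSeq start lay within 1 kb of 6750 (78.2%), whose median percentile was 83.9. Another 356 (4.12%) lay at a gene end with no RefSeq start within 1 kb, and had a median percentile of 61.5. These were classed as far ends, but a second start without a promoter entry would be classed so too. For the remaining 1531 (17.7%), of which 216 on chromosome 18, no promoter entry was used here, so start and far end were not told apart. In 5178 intervals that held exactly 1 start, the summit lay at a median of −42 bp from it (quartiles −89 and 1 bp), and the summit was upstream of the start in 74.3% of them.

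**Figure D1:**
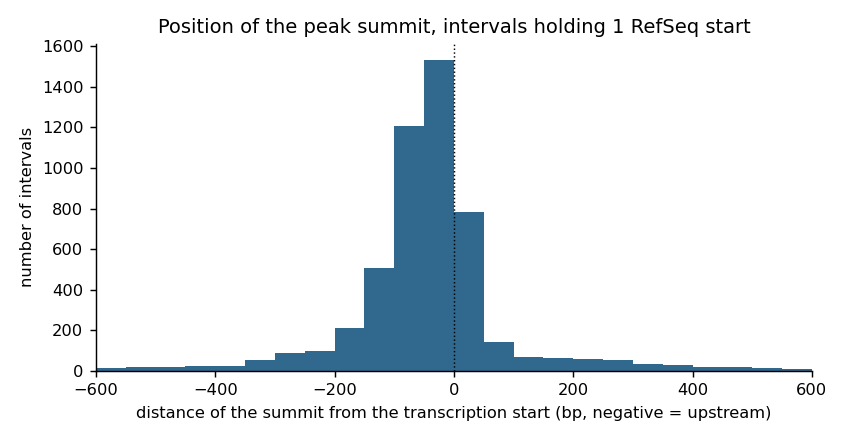
Number of intervals (vertical axis) by the distance in bp from the RefSeq transcription start to the summit (median over libraries; negative is upstream), for the 5178 gene-end intervals holding 1 start. The bars pile up just upstream of the start, with 70.9% of summits within 100 bp and 87.2% within 200 bp of it.

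The 826 intervals with starts on both strands were wider than the 5924 with starts on a single strand (median 1040 against 934 bp) and had a median percentile of 86.0 against 83.5. In all, 9628 of 21631 protein-coding genes (44.5%) had such an interval at one of their ends. Chromosome X carried 194 intervals (2.25%), with a median percentile of 84.3.

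The rule itself selects for openness, so the levels are given as a description. The median percentile was 82.6 in the gene-end intervals and 63.6 in the intervals elsewhere, and the median fold was 10.4 against 7.54. A mean percentile over 90 was reached by 2558 gene-end intervals (29.6%) and by 401 elsewhere (5.47%). Gene-end intervals were also wider (median 935 against 654 bp). The pooled standard deviation within groups was smaller, with a median of 5.93 against 10.6 percentile points, and it fell as the level rose. It was 14.0 points in the gene-end intervals with a mean percentile between 20 and 40, and 1.99 points in those over 95.

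Just outside the rule, 411 gene-end intervals had a peak in all libraries but 1, and their median percentile was 44.8. For the distance limit, the 81 intervals in the last 100 bp inside it had a median percentile of 59.3, and the 89 in the first 100 bp beyond it had 60.1.

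**Figure D2:**
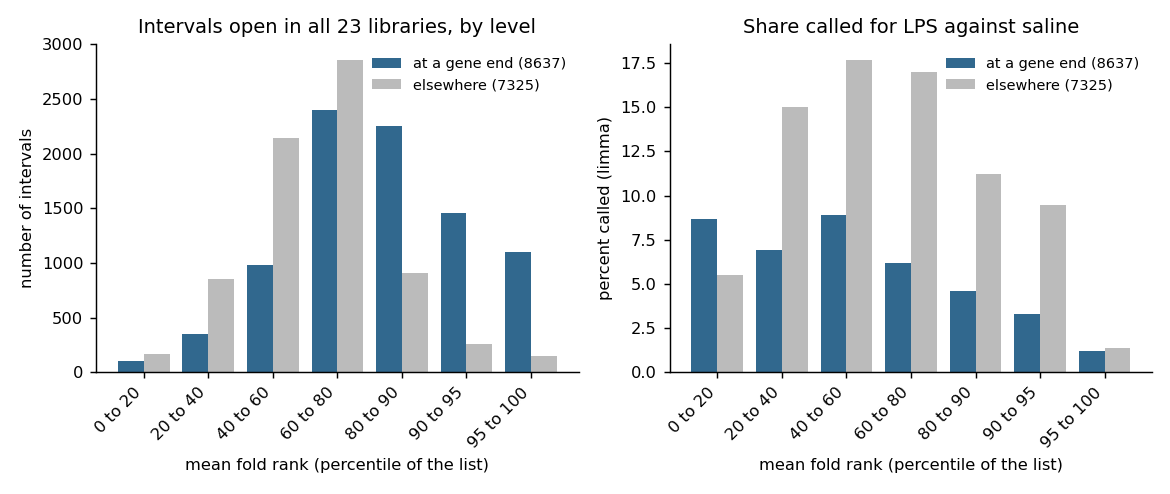
Left, number of intervals open in all 23 libraries by mean percentile of the fold, for gene-end intervals (blue) and intervals elsewhere (grey). Right, percentage of each class called different between LPS and saline (limma, adjusted p under 0.05). Gene-end intervals crowd at 60 and above, and at levels between 20 and 95 a smaller share of them was called than of the intervals elsewhere.

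The gene-end interval with the highest mean percentile lay near Lars2, a mitochondrial leucyl-tRNA synthetase gene, 458 bp from an end of the gene (chr9:123461792-123462217). It ranked at 100 in each of the 23 libraries, with folds between 36.5 and 67.0. Whether the reads at this interval were placed uniquely was not tested. The second highest interval, at the start of Golph3l, which encodes a Golgi protein, had folds between 16.7 and 34.2. Next came the starts of Kbtbd7, which encodes an adaptor of a ubiquitin ligase, Sec61a2, a subunit of the protein-conducting channel of the endoplasmic reticulum, and Selenoi, an enzyme of phospholipid synthesis. Pigu, needed for GPI anchors, and Glo1, which detoxifies methylglyoxal, were also among the 10 highest. Their mean percentiles were between 99.6 and 99.9, and no library fell below 98.0 at any of them.

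The lowest gene-end interval had a mean percentile of 1.89 (the lowest elsewhere stood at 0.322). It lay at Eno3, which encodes muscle enolase, at an end classed as far. The start of Zfp36, whose product destabilises cytokine mRNAs, ranked at a mean percentile of 5.11 (range 0.391 to 3.3 in CON_SAL, 0.963 to 16.5 in CON_LPS, 0.951 to 16.8 in MIA_SAL and 0.261 to 11.5 in MIA_LPS). An interval 909 bp from an end of Junb, an AP-1 subunit gene, had a mean of 5.31. Zfp36 and Junb belong to the immediate early list described below, whose median level was 48.7. The spread was largest at the start of Irf2bp2, a transcriptional corepressor gene, where single libraries ran from 12.7 to 78.7 and each of the 4 groups covered most of that range. Tet2, which encodes an enzyme that oxidises methylcytosine, had a pooled SD of 20.6 points at its start.

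LPS changed the grade of a small share of these intervals. With limma, fitted on all 15962 intervals open in every library and adjusted by Benjamini-Hochberg over all of them, 432 of the 8637 gene-end intervals (5.0%) differed between the 12 LPS and 11 saline libraries of both offspring groups. Of these, 199 were higher after LPS and 233 lower (46.1% higher). With only peaks of a −log10 q of at least 5, the split was 202 higher and 97 lower (67.6% higher). The background was 9.78% of all tested intervals (4.96% higher and 4.82% lower), so a smaller share was called of the gene-end intervals than of the whole, and 15.4% of the intervals elsewhere were called. Whether the classes differ was not tested. Between mean percentiles of 40 and 60, with SDs of 12.3 and 13.1 points, 8.9% of 978 gene-end intervals and 17.7% of 2139 elsewhere were called. The order was the opposite at levels under 20, with 8.65% of 104 and 5.49% of 164 (SDs of 10.7 and 11.3 points). Over 95 the shares were 1.18% of 1098 and 1.35% of 148 (SDs of 1.99 and 1.95 points).

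The differences were small for most. The median absolute LPS difference was 2.07 percentile points in gene-end intervals and 5.37 elsewhere. The median signed difference was −0.0315 points, against −0.122 over all tested intervals. Among the called ones, 128 of the rises and 148 of the falls reached 10 points, and 37 and 29 reached 20 points. Of the 6750 intervals at starts 4.71% were called, of the 356 classed as far ends 8.43%, and of the 826 with starts on both strands 2.66%. On chromosome X, 10 of 194 were called, 2 higher and 8 lower.

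The 12 largest rises lay between 27.7 and 39.9 points. The start of Cd44, a cell surface receptor for hyaluronan (chr2:102901181-102901789; sequence above), stood at percentiles of 40.2, 16.0, 21.0, 59.5 and 20.7 in the 5 CON_SAL libraries and between 12.3 and 50.8 (median 25.8) in MIA_SAL. After LPS it stood between 59.1 and 80.5 (median 73.5) in CON_LPS, and at 62.5, 63.9, 70.4, 68.9 and 82.4 in MIA_LPS. Apart from the single CON_SAL library at 59.5, the saline libraries lay below all LPS libraries. The difference was 39.9 points (SE 5.29, limma adjusted p = 1.04e-05). On the fold scale the Cd44 interval ran from 3.82 to 16.0.

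Bcl3, which encodes a nuclear IkB protein that modifies NF-kB binding, had the smallest adjusted p of all gene-end intervals (chr7:19823495-19824526). It stood at 43.4, 43.9, 21.1, 47.0 and 26.7 in CON_SAL and between 30.6 and 58.6 (median 40.8) in MIA_SAL. The LPS values were 69.1 to 85.0 (median 78.7) in CON and 79.9, 72.3, 77.4, 77.8 and 62.7 in MIA. The groups did not overlap, and the difference was 37.0 points (SE 4.02, limma adjusted p = 5.15e-07).

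Lgals3 encodes galectin-3, a lectin of activated phagocytes, and its start (chr14:47373702-47374749) rose by 33.1 points (SE 4.82, limma adjusted p = 3.36e-05). Its MIA_LPS libraries stood at 67.3, 76.0, 71.6, 68.4 and 65.5, and its MIA_SAL libraries between 21.3 and 55.1 (median 29.2). In CON the values were 52.1, 23.2, 53.4, 19.3 and 38.7 after saline and 45.3 to 74.4 (median 70.7) after LPS. A single CON_LPS library, at 45.3, lay inside the range of the saline libraries.

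Uba7, the E1 enzyme that activates the interferon-induced modifier ISG15 (chr9:107975278-107976307), rose by 29.7 points (SE 4.98, limma adjusted p = 0.000187). Its saline libraries lay between 16.6 and 44.4 and its LPS libraries between 32.2 and 78.5. Cd244a, a receptor of the SLAM family (chr1:171558635-171559435), had saline values of 27.3 to 64.3 and LPS values of 66.9 to 84.1, with no overlap. The rise was 29.1 points (SE 3.84, limma adjusted p = 9.9e-06).

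The other 7 of the 12 largest rises were at Dennd4a (36.6 points), Tppp3 (34.2), Ehd1 (33.4), Osbpl11 (30.7), Pgghg (29.6), C5ar1 (28.6) and Fads3 (27.7). C5ar1 encodes the receptor for the complement fragment C5a, Ehd1 a protein of endosome recycling and Fads3 a fatty acid desaturase. The intervals at Dennd4a and Osbpl11 were classed as far ends, and for Tppp3, Ehd1 and Pgghg the end was not classified. All 12 were called with limma, with adjusted p between 5.15e-07 and 0.00305.

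Falls were led by Map3k6, a kinase gene of the MAP kinase cascade, at an end classed as far (chr4:133238004-133238280). Its CON_SAL libraries stood at 43.8, 58.1, 58.6, 23.6 and 49.1, and MIA_SAL between 38.8 and 72.1 (median 50.9). After LPS, CON ran from 4.22 to 47.3 (median 13.9) and MIA stood at 13.1, 4.92, 33.4, 24.7 and 4.82. The fall was −32.5 points (SE 5.9, limma adjusted p = 0.000487), and the ranges overlapped.

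Dock1 encodes a Rac exchange factor used in engulfment and cell movement (chr7:134670305-134671029). Saline values were 55.1, 57.0, 77.8, 60 and 62.4 in CON and 54.5 to 71.0 (median 62.5) in MIA, against LPS values of 15.6 to 61.6 (median 32.2) in CON and 25.0, 15.7, 31.7, 37.7 and 34.3 in MIA. All MIA_LPS libraries lay below all saline libraries, while 1 CON_LPS library, at 61.6, lay among them. The difference was −29.6 points (SE 4.93, limma adjusted p = 0.000174).

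Espn, which encodes an actin-bundling protein (chr4:152151936-152152583), had saline values of 53.1 to 81.3 and LPS values of 20.8 to 66.2, a difference of −28.6 points (SE 5.17, limma adjusted p = 0.000468). Il12rb2, a chain of the interleukin-12 receptor (chr6:67375818-67376396), showed no overlap: its saline libraries lay between 75.8 and 87.9 and its LPS libraries between 22.2 and 71.1. The difference there was −25.2 points (SE 4.47, limma adjusted p = 0.000367).

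The remaining 8 of the 12 largest falls were at Man2a2 (−29.1 points), a Golgi mannosidase gene, Dhtkd1 (−25.8), a mitochondrial dehydrogenase gene, Ltb (−23.8), which encodes lymphotoxin beta, Amotl2 (−23.6), Klhl6 (−23.1), Slc16a9 (−22.6), Cth (−22.3), an enzyme gene of cysteine synthesis, and Btc (−22.2), which encodes the growth factor betacellulin. Adjusted p with limma lay between 0.000174 and 0.0265 for the 12. Of the 24 calls, that at Ltb ended when a single library was left out: the adjusted p was 0.0584 without CON_SAL replicate 2, 0.0555 without CON_SAL replicate 3, 0.0576 without MIA_LPS replicate 2 and 0.0561 without MIA_LPS replicate 5.

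**Figure D3:**
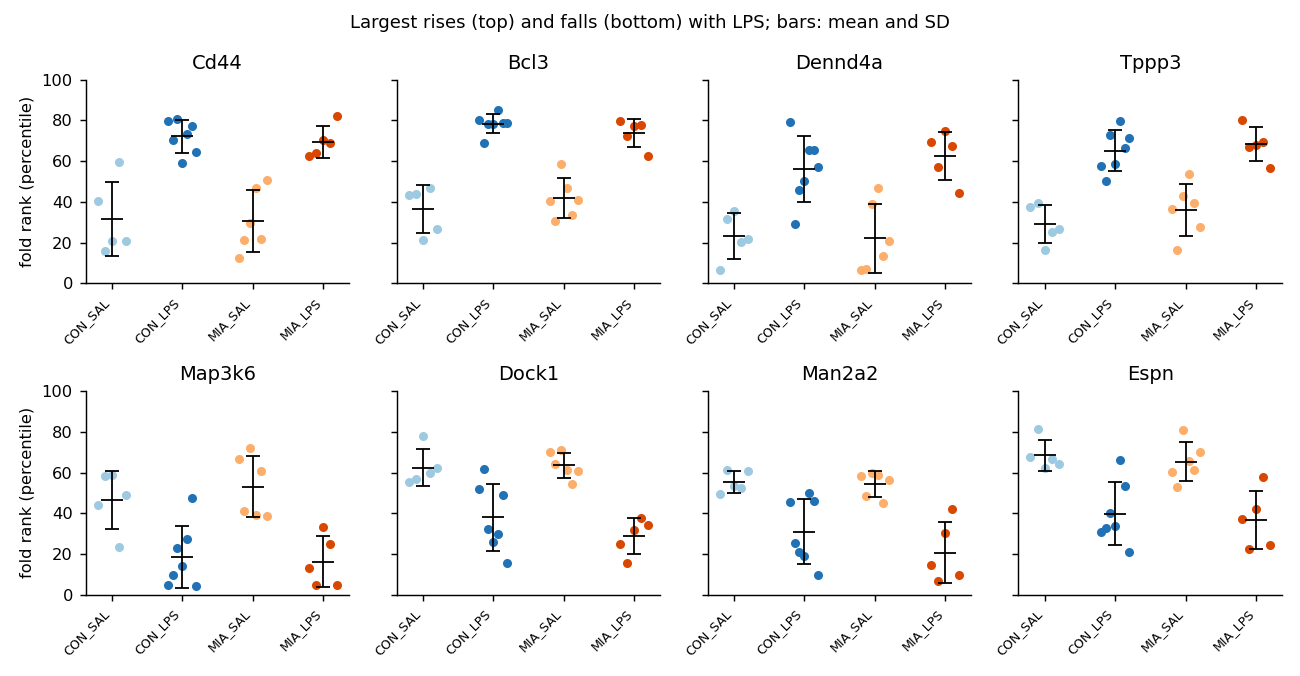
Percentile of the fold in each library (points) by group, with the mean and SD (bars), at the 4 intervals with the largest rises (top) and the 4 with the largest falls (bottom) after LPS. At Bcl3 no LPS library overlaps a saline library, while at Map3k6 the ranges overlap.

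In 9 gene-end intervals the 12 LPS and 11 saline libraries did not overlap, 7 with LPS higher and 2 with LPS lower, against a background of 0.345% and 0.0814% of all tested intervals (55 and 13 of them). Besides Bcl3, Cd244a and Osbpl11, the rises without overlap were at Pdcd6 (saline 76.0 to 92.1, LPS 92.4 to 98.7), Erap1 (61.6 to 78.7, then 79.0 to 93.9), Mafa (56.3 to 82.3, then 83.2 to 95.6) and Cd300lg (78.8 to 89.0, then 89.3 to 98.1). Erap1 trims peptides for MHC class I, and Pdcd6 is a calcium-binding protein. Besides Il12rb2, the fall without overlap was at the starts of Moap1 and Tmem251 (saline 88.9 to 95.5, LPS 70.9 to 87.7).

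Promoter windows in intervals that changed differed in some motif shares from those that did not. TGANTCA, the AP-1 motif, was present in 11.6% of 138 windows in intervals higher after LPS, in 1.4% of 214 in lower ones and in 3.65% of 7787 in those not called. The ETS motif CCGGAAGT was present in 2.9%, 4.67% and 10.9%, in the same order. Its overlapping form ACCGGAAG (GABPA) hardly differed, with 6.52%, 6.07% and 6.15%. GGGNNTTCC, an NF-kB motif, was present in 10.9%, 7.48% and 8.39%. The median CpG ratio was 0.703, 0.733 and 0.827. No test was made on these shares. The summit lay at a median of −48 bp from the start in the higher, −33.5 bp in the lower and −43 bp in the other intervals.

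Gene lists were described by their counts of called intervals, to be read against the 5.0% called over the gene-end intervals and the background of 9.78%. Few intervals were called at the machinery common to all cells. No interval was called among those of proteasome subunits (40 intervals), spliceosome proteins (80), translation factors (68), aminoacyl-tRNA synthetases (38) or cholesterol synthesis genes (27). Their LPS differences ran from −5.81 to 7.27, −9.75 to 9.37, −8.85 to 9.97, −9.32 to 5.59 and −5.2 to 7.21 points, in that order. Of 86 intervals at cytosolic ribosomal protein genes, Rps20 was called higher (3.86 points, SE 1.01, limma adjusted p = 0.0123) and Rpl34 lower (−2.8 points, SE 0.904, limma adjusted p = 0.0462).

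Of 73 intervals at mitochondrial ribosomal protein genes 1 was called, Mrps15, which rose by 12.9 points. Of 85 at respiratory chain genes 2 were called, Atp5mpl (6.84 points) and Ndufv1 (4.41 points). The median levels of these lists were 81.2 for cytosolic ribosomal proteins, 81.6 for mitochondrial ribosomal proteins and 86.8 for the respiratory chain, and that of the cholesterol genes was 91.6.

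The list with the most rises for its size was that of immediate early genes, which are induced within minutes by many stimuli, tissue dissociation among them. Of its 37 intervals 8 were called, all higher after LPS: Jund, Ier3, Jun, Rhob, Btg2, Fosb, Hspa1b and the interval shared by Hspa1a and Hspa1l. The median LPS difference of the list was 4.78 points, its median level 48.7. All groups went through the same dissociation, per the labels' protocols, and the part of that step in this result was not tested.

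Jund, an AP-1 subunit gene (chr8:70698345-70699863), stood at 56.3, 38.3, 22.6, 27.3 and 28.0 in CON_SAL and at 65.9, 48.7, 71.1, 67.0 and 42.9 in MIA_LPS. Its CON_LPS libraries lay between 45.5 and 75.6 and its MIA_SAL libraries between 22.2 and 49.1. The ranges overlapped, and the difference was 25.6 points (SE 5.12, limma adjusted p = 0.00138). Jun, at 18.7 points, and Ier3, an early response gene, at 20.8 points, were also called. The interval of Hspa1a also holds the start of Hspa1l, another HSP70 gene, and the call cannot be given to either. Hspa1a and Hspa1b, the inducible HSP70 genes, are near-identical copies, so reads may have been placed at either of them.

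Of 42 intervals at genes of NF-kB signalling and acute inflammation 4 were called, all higher: Bcl3, Ier3, and both ends of Rela, which encodes the p65 subunit of NF-kB (11.9 and 13.2 points). This list had a median level of 53.6 and a median LPS difference of 0.453 points. In the TLR4 signalling list 2 of 35 were called. Irak3, which restrains TLR signalling, rose by 16.2 points (SE 4.13, limma adjusted p = 0.0099), and Ticam2, an adaptor of TLR4, fell by 18.8 points (limma adjusted p = 0.0088).

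Of 43 intervals at interferon pathway genes, Ifitm3 and Bst2, which encode antiviral membrane proteins, were higher (12.8 and 12.1 points) and the interval shared by Dtx3l and Parp9 was lower (−7.07 points). Erap1 was the single call among 23 intervals of antigen presentation genes (13.4 points, SE 2.65, limma adjusted p = 0.00118). The calls at Rela, at 13.2 points, and at Bst2 ended without 1 library. The adjusted p at Rela was 0.0527 without MIA_LPS replicate 1 and 0.0523 without MIA_LPS replicate 4. The adjusted p at Bst2 was 0.0549 without CON_SAL replicate 1, 0.0571 without CON_SAL replicate 3 and 0.0701 without MIA_LPS replicate 5.

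Of 35 intervals at cell cycle and DNA replication genes 4 were called, all lower, and the median LPS difference of the list was 0.0562 points. Ccnd3, which encodes cyclin D3 (chr17:47504809-47505298), stood at 48.6, 58.5, 37.2, 16.8 and 18.9 in CON_SAL and at 6.52, 11.3, 14.8, 9.77 and 8.65 in MIA_LPS, with 3.67 to 32.6 in CON_LPS and 16.3 to 47.6 in MIA_SAL. MIA_LPS lay below every saline library, and CON_LPS overlapped with them. The difference was −22.1 points (SE 5.22, limma adjusted p = 0.00568). Bub1b, of the mitotic checkpoint, fell by 19.5 points. Mcm6, of the replicative helicase, fell by 5.42 points, and E2f1 by 5.17 points.

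Of 232 intervals at genes named Zfp, most of which encode zinc finger proteins, 12 were called lower and 2 higher. The largest falls were at Zfp422 (−20.6 points) and Zfp799 (−20.1 points), and the rises were at Zfp7 (8.84 points) and at the start shared by Zfp398 and Zfp786 (5.36 points). Of 164 intervals at solute carrier genes 3 were higher and 5 lower. Slc16a3, the lactate exporter MCT4 (chr11:120948358-120949337), was among the least open intervals after saline (19.2, 5.0, 11.3, 6.46 and 2.8 in CON_SAL, and 2.54 to 19.0 in MIA_SAL). It stood at 7.84 to 54.0 (median 43.6) in CON_LPS and 30.5, 14.9, 23.2, 17.6 and 16.4 in MIA_LPS. The LPS groups overlapped with the saline groups at their lower ends, and the rise was 19.9 points (SE 4.84, limma adjusted p = 0.00739).

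Of 34 intervals at myeloid transcription factor genes, Klf2 was higher (6.94 points), and Mitf (−2.72 points) and Runx1 (−16.5 points) were lower. Among 58 intervals at chromatin regulator genes 3 were higher. These were at Setd1a (17.2 points) and Kdm2a (6.66 points), both in intervals whose nearest end belongs to another gene, and at Kat6a (8.59 points). Of 37 intervals at glycolysis and hypoxia genes 2 were called, Slc16a3 higher (above) and Egln3, an oxygen sensor gene, lower (−14.5 points). Calls were also made at Srxn1, an antioxidant gene (5.53 points), and Nfil3, a clock-controlled repressor gene (−14.5 points). None of the 22 intervals of the homeostatic microglia list was called (median level 60.4, differences from −15.3 to 9.24 points), nor of the 11 at glucocorticoid-responsive genes.

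Several of these calls were near the threshold, and leaving out 1 library in turn ended them in 10 to 17 of 23 cases. These were Rpl34, Kat6a, Runx1, Ifitm3, Ndufv1 and the interval of Hspa1a and Hspa1l, where the highest adjusted p was 0.0889, 0.108, 0.0937, 0.0872, 0.0736 and 0.0992. The call at Nfil3 ended without MIA_LPS replicate 2 (0.0581) or 5 (0.055). The call at the interval of Kdm2a ended without CON_SAL replicate 4 (0.0595) or MIA_LPS replicate 4 (0.0704). The call at the start of Zfp398 and Zfp786 ended without CON_SAL replicate 1 (0.0552) or 2 (0.057), or MIA_LPS replicate 4 (0.0544).

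**Figure D4:**
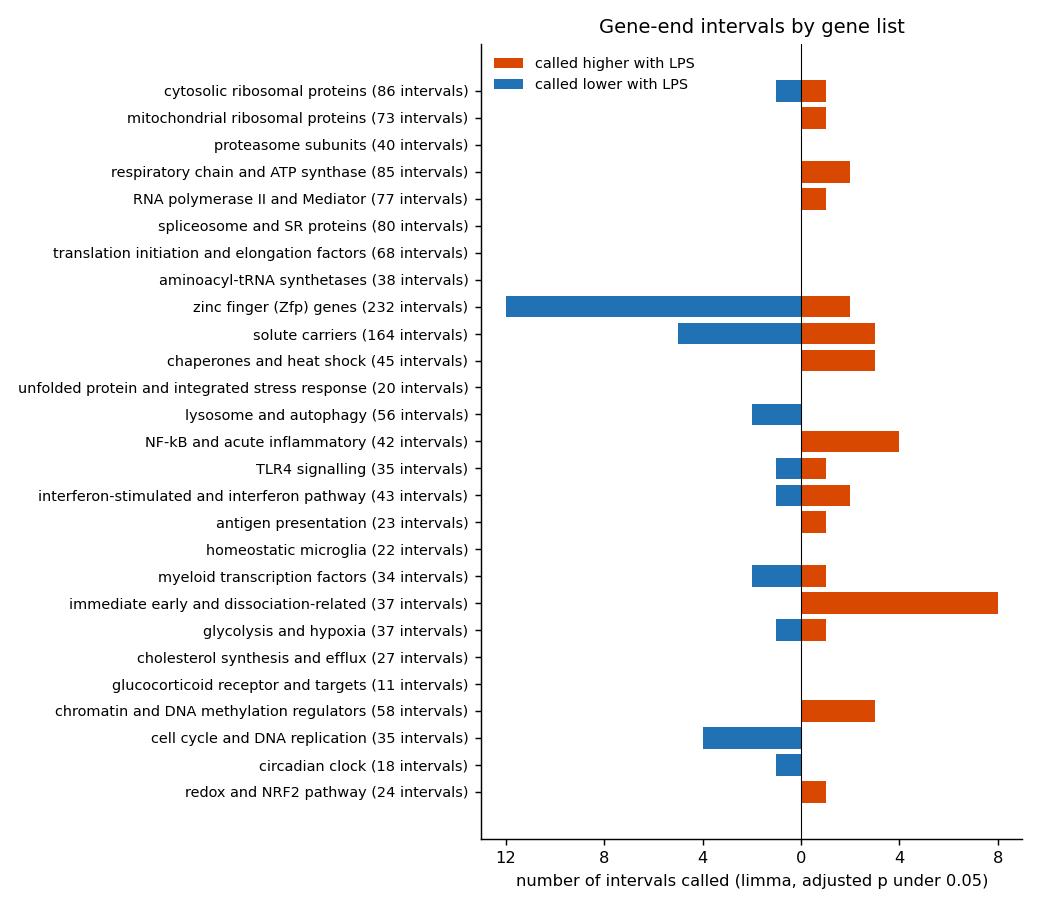
Number of gene-end intervals called lower (blue, to the left) and higher (orange, to the right) after LPS over both offspring groups (limma, adjusted p under 0.05), for each gene list, with the number of intervals of the list in parentheses. The immediate early list has 8 rises and no fall, and the Zfp genes have 12 falls and 2 rises.

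By offspring group, LPS changed 100 gene-end intervals in CON (1.16%, background 3.12%; 56 higher, background 2.13%, and 44 lower, background 0.99%) and 69 in MIA (0.799%, background 2.31%; 31 higher, background 1.23%, and 38 lower, background 1.08%), by the same limma fit. An interval was called in both for 21 of them. The direction was nearly always shared: of the 100 called in CON, 97 had the same sign in MIA, and of the 69 called in MIA, 67 had the same sign in CON. Over all gene-end intervals 61.0% had the same sign. Intervals chosen in one group have larger values in that group by the choice itself: the 56 rises called in CON had a median of 24.4 points in CON and 12.6 in MIA, and the 31 called in MIA had 23.1 in MIA and 15.7 in CON.

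The counts in the separate groups moved with single libraries. In CON the count was 43 without CON_SAL replicate 5 and 55 without CON_SAL replicate 4. In MIA it was 104 without MIA_LPS replicate 3, and it was 37, 42, 38, 42 and 35 without MIA_LPS replicate 1 or 5 or MIA_SAL replicate 1, 5 or 6. The share of rises among the calls in MIA was 44.9%, but 58.0% on log2 folds centred on the median, 55.1% on quantile-normalised folds and 57.5% on ranks within the intervals open in every library.

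**Figure D5:**
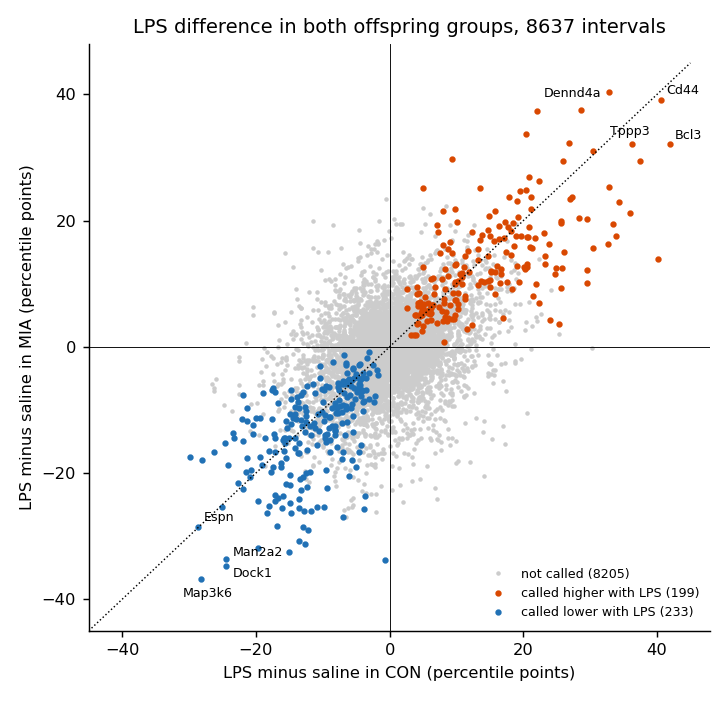
LPS difference in percentile points in CON (horizontal) and in MIA offspring (vertical) for each of the 8637 gene-end intervals. Orange and blue points are the 199 and 233 intervals called higher and lower over both groups, grey points were not called, and the dotted line marks equal differences. The points were called on the average of both groups, which favours equal signs, and they lie on both sides of the dotted line.

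No gene-end interval was called for a difference in LPS response between CON and MIA. The interaction term, the response in MIA minus that in CON, gave 0 calls with limma (background 0%). An unadjusted p under 0.05 was reached by 274 intervals (3.17%, against 3.55% of all tested intervals). The smallest adjusted p was 0.998. Over the 199 rises the median response was 13.3 points in CON and 11.9 in MIA. Over the 233 falls it was −10.9 and −11.9 points. The 95% interval of the interaction, not adjusted for multiple tests, reached a median of 10.5 points to either side. Estimates ran from −34.7 to 31.4 points without a call, so even large differences at single gene-end intervals could have been missed. The value of −34.7 points was that at Mbp, a marker of oligodendrocytes. There MIA minus CON was 17.2 points after saline and −17.5 after LPS, and the part of other cells was not tested.

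Some genes were called in a single group, without a call for the difference between the groups. At the start of Wdr83os (chr8:85081099-85081645), CON_SAL stood at 14.5, 24.6, 51.8, 14.9 and 13.3 and CON_LPS between 49.5 and 71.8 (median 68.3). In MIA the saline libraries lay between 11.0 and 55.0 (median 45.1) and the LPS libraries at 54.6, 39.7, 64.5, 52.7 and 47.4. The rise was 40.2 points in CON (limma adjusted p = 0.00314) and 13.9 in MIA (adjusted p = 0.445), with an interaction of −26.3 points (SE 11.2, adjusted p = 0.998).

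Tbc1d2b, which encodes a GTPase-activating protein for Rab proteins (chr9:90270260-90270902), was called in MIA and not in CON. MIA_SAL lay between 38.0 and 62.6 (median 47.3) and MIA_LPS stood at 25.2, 9.58, 6.49, 31.4 and 7.75, without overlap, a difference of −33.8 points (SE 7.06, limma adjusted p = 0.00748). In CON the values were 37.0, 25.6, 61.2, 38.3 and 30.6 after saline and 25.0 to 48.7 after LPS, a difference of −0.725 points (SE 6.82). The interaction was −33.0 points (SE 9.82), with an unadjusted p of 0.00218 and an adjusted p of 0.998, so the difference between the groups did not pass the test.

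Among other calls made within a single group, Anxa7, an annexin gene, rose by 33.7 points in MIA (limma adjusted p = 0.00457) and had a difference of 20.4 points in CON (adjusted p = 0.0784). In CON, Cldn34c1 fell by 26.3 points and Zfp182 by 26.0 points, both on chromosome X. The call at Cldn34c1 ended without CON_SAL replicate 5 (adjusted p = 0.062), and that at Zfp182 ended without 1 library in 9 of 23 cases, with an adjusted p of up to 0.148.

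MIA and CON offspring were also compared directly. After saline no gene-end interval was called with limma (background 0%), with a smallest adjusted p of 1. An unadjusted p under 0.05 was reached by 238 (2.76%, against 3.26% of all tested intervals). After LPS there was again no call (background 0%), with a smallest adjusted p of 0.829. Here 375 (4.34%, against 4.65% of all tested intervals) had an unadjusted p under 0.05. The difference was under 5 points in 81.6% of intervals after saline and in 79.7% after LPS. The 95% interval reached a median of 7.55 points to either side after saline and 7.3 after LPS. Differences ranged from −25 to 29.2 points after saline and from −25.4 to 22.3 after LPS.

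The intervals with the smallest p in these comparisons were picked for it. After saline this was the start of H3c7, a histone H3 gene, at 88.8 ± 3.17 (SD, n = 5) in CON and 75.4 ± 4.12 (n = 6) in MIA, a difference of −13.4 points (limma adjusted p = 1). After LPS it was Dctn3, a dynactin subunit gene, at 79.3 ± 4.69 (n = 7) in CON and 90.4 ± 3.75 (n = 5) in MIA, a difference of 11.1 points (limma adjusted p = 0.829). For the interaction it was Clec11a, a growth factor gene, whose means went from 50.8 to 58.0 after LPS in CON and from 64.6 to 40.6 in MIA (−31.2 points, limma adjusted p = 0.998).

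The labelled cell type was checked on its markers. Of 12 microglia markers, 11 had a peak within 1 kb of a gene end in at least 1 library, and P2ry12, Tmem119, Cx3cr1, Sall1, Siglech and P2ry13 were among those with an interval open in all 23. None of these 6 was called for LPS against saline over both offspring groups. Intervals open in all libraries were found at 1 of 10 neuron markers (Ppp1r1b, in an interval at Stard3), 1 of 8 astrocyte markers (Aldoc, in an interval at Pigs), 1 of 9 oligodendrocyte markers (Mbp) and 1 of 7 endothelial markers (Kdr), and at none of the lymphocyte, border-associated macrophage or monocyte and neutrophil markers.

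Markers of other cells also had peaks outside the intervals of the rule. Counting every gene-end peak, single libraries had peaks at 2 to 5 of 10 neuron markers and at 1 to 4 of 8 astrocyte markers. The same count was 1 to 2 of 9 oligodendrocyte, 1 to 3 of 7 endothelial and 9 to 11 of 12 microglia markers. Of 8 monocyte and neutrophil markers, S100a8 had a peak in 6 of 7 CON_LPS and 4 of 5 MIA_LPS libraries, and Camp in 3 and 2, and neither had one in the 11 saline libraries. The summed percentile of the list was 0 in all saline libraries, 19.3 to 91.8 in CON_LPS and 0 to 114 in MIA_LPS. Ccr2, Ly6c2, Plac8, S100a9, Ngp and Retnlg had no peak in any library. For 8 lymphocyte markers the summed percentile was 3.04 to 66.4 in CON_SAL, 78.4 to 130 in CON_LPS, 29.4 to 122 in MIA_SAL and 73.5 to 108 in MIA_LPS, from Cd3d, Cd79a and Lck. The LPS libraries of CON lay above its saline libraries, while those of MIA lay inside the range of its saline libraries. Cd3e, Cd2, Ms4a1 and Nkg7 had no peak. The part of other cells in the LPS differences above was not tested.

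The summed percentile of the 7 endothelial markers was 120 to 167 in CON_SAL, 76.3 to 166 in CON_LPS, 99.2 to 173 in MIA_SAL and 87.7 to 116 in MIA_LPS, and Cldn5, Cdh5, Tie1 and Tek had no peak in any library. Kdr, a receptor gene of vascular endothelial growth factor, was the single marker of another cell type with a call (−11.9 points, SE 3.9, limma adjusted p = 0.0493). The interval lay 570 bp from an end classed as far. The call ended in 17 of 23 cases when 1 library was left out, with an adjusted p of up to 0.0932.

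Libraries differed in ways the groups do not account for. They came from 10560 to 25000 sorted cells, and 33939 to 68298 peaks were deposited for each on these chromosomes. Within libraries of fewer than 20000 cells, LPS over both groups gave 95 calls (28 higher, 67 lower), and within those of 20000 or more it gave 824 (548 higher, 276 lower). The first class held 3, 4, 4 and 2 libraries of CON_SAL, CON_LPS, MIA_SAL and MIA_LPS, the second 2, 3, 2 and 3. With the number of cells as a covariate the count was 482. In 6 libraries the labels' identity numbers were 01 to 03. These 6 libraries had stood apart in earlier work on the data, which is not shown here. Without them 369 intervals were called over both groups, 100 in CON and 33 in MIA.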

How the data were processed

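ATAC-seq peak lists of 23 libraries of sorted striatal microglia were used, with 1 list per library. The submitters' processing notes name MACS2, Bowtie2 and SAMtools, further DiffBind, Picard and cutadapt, and the builds GRCm38 and mm10. The sources used here give no versions or settings. The authors' deposited lists hold, per peak, a −log10 p, a −log10 q of at least 1.301, and the fold enrichment at the summit, a ratio. Peaks were called per library. Fold and −log10 p are the authors' values. No read counts were used, so depth is unknown, and precision is given by the spread between libraries.

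In every list the 33900 peaks with the highest −log10 p on chromosomes 1 to 19 and X were kept, and overlapping peaks were merged. Gene ends came from a RefSeq table (GRCm38.p6, 21631 protein-coding genes, no strand), and transcription starts and sequences from RefSeq promoter windows of the same build. Intervals carry the name of the protein-coding gene whose end is nearest, which does not show that it controls the gene. The percentile of the fold was fitted with limma 3.58.1 in R 4.3.3 (4 group means, 1 shared spread, empirical Bayes with trend) on the 15962 intervals open in all libraries. P-values were two-sided and adjusted by Benjamini-Hochberg over all of these, with calls at an adjusted p under 0.05. They measure the spread between these libraries, which may be technical. The fit was tested on simulated data. Merging and description used Python 3.11.15 with pandas 2.3.3 and numpy 2.4.6.

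Named are the 12 largest called rises and falls with LPS, up to 5 called per direction in each other comparison, up to 3 called per direction and the most open interval in each gene list, the 10 highest and 6 lowest levels, the 5 largest and smallest spreads and the 3 widest intervals. Other names were chosen after their values were seen. Some genes of the marker lists are not reported here. The intervals, the gene lists and the tests were chosen with earlier results of these data known. Alternatives covered the scale, the column ranked, the length of the lists, the peak threshold, the way peaks were joined, the distance limit, covariates, blocks and left-out libraries.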

Additional observations from a re-analysis of the deposited data

Results flagged for a closer look

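In 108 groups of 5 to 7 libraries the most extreme library was set against Dixon's 95% limit, and 9 passed it. Chance flags about 1 in 20 groups.

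At Lgals3, a CON_LPS library (replicate 6) stood at a percentile of 45.3, the others of its group between 64.3 and 74.4, and a MIA_SAL library (replicate 3) stood at 55.1, the others between 21.3 and 30.9. At Uba7, a CON_SAL library (replicate 5) stood at 28.0 against 39.6 to 44.4, and a CON_LPS library (replicate 3) at 32.2 against 61.0 to 78.5. Espn had a CON_SAL library (replicate 2) at 81.3 against 62.1 to 67.4. Il12rb2 had a CON_LPS library (replicate 6) at 22.2 against 52.5 to 71.1. Amotl2 had a MIA_SAL library (replicate 5) at 70.5 against 47.0 to 53.1. The median percentile over the 8637 gene-end intervals was 83.1 in CON_LPS replicate 2, against 83.4 to 83.5 in the others of its group, and 81.8 in MIA_SAL replicate 2, against 83.1 to 83.4. No gene-end interval moved in opposite directions in all libraries of CON and MIA.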

How the results depend on the processing

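No difference at a named interval reversed. Of 87 such differences 10 stayed called under every alternative and left-out library that gave them a value, but only 34 had a value with the best 20000 peaks, 67 with −log10 q of at least 5 and 80 with windows of fixed width, and over 3661 comparisons 3220 stayed called and 441 lost the call. No alternative gave a call at a gene-end interval for MIA against CON, after saline or LPS, or for the interaction. With all intervals in at least 3 libraries and an absent peak at 0, other intervals gave 13 calls for MIA against CON after LPS and 2 for the interaction. The highest and lowest levels were also checked under other settings. In 30 of 87 such checks the level moved by at least the pooled SD of its interval. Some of these settings rank against another set of peaks, which itself shifts a percentile. Counts of gene-end intervals called are given below as over both groups, in CON and in MIA, with 432, 100 and 69 in the report. Ranking by −log10 p gave 808, 316 and 245, the number of deposited peaks as a covariate 691, 163 and 145, and the best 20000 peaks 236, 28 and 3. The mean over the peaks of an interval gave 260, 60 and 32. Libraries of 20000 or more cells gave 824, 352 and 13, and those of fewer 95, 11 and 0. The counts in CON and MIA were 62 and 33 with −log10 q of at least 5, and 180 and 161 with all intervals in at least 3 libraries and an absent peak at 0. In MIA alone the count was 112 on centred log2 folds, 203 with array weights and 33 without identity numbers 01 to 03. The cause of these shifts was not tested. Leaving out 1 library gave 337 to 475 over both groups, 43 to 108 in CON and 35 to 104 in MIA. The replicate numbers of the labels did not pair the libraries (mean correlation 0.0392 over 31 pairs of the same number, lowest −0.442, and 6 of 23 libraries correlated best with their own number). Libraries of the same identity number in other groups correlated at a mean of 0.24 over 6 pairs (lowest −0.0677), those of another number at −0.00782. Within a group, libraries of the same identity number correlated at a mean of 0.102 over 4 pairs, those of another number at −0.226. These are correlations of deviations from the group means, which makes them lower within a group. With the identity number as a random block (estimated correlation 0.277) the counts were 532, 103 and 139. With the replicate block the counts were 444, 76 and 58, and 0 for the other comparisons. Depth is unknown, so whether it limits these counts cannot be told.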
